A study of Homo sapiens with 13 samples.

Results

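The regions described here are 5 windows of the human genome around genes of nuclear receptors, which are transcription factors that bind DNA and, in most cases, a small lipid ligand. They are the corticosteroid receptor genes NR3C1 (chromosome 5, 142.5 to 143 Mb) and NR3C2 (chromosome 4, 148.8 to 149.6 Mb), the orphan receptor genes NR2F1 (chromosome 5, 92.6 to 93.2 Mb) and NR2F2 (chromosome 15, 96.6 to 97.2 Mb), and the vitamin D receptor gene VDR (chromosome 12, 48.1 to 48.4 Mb), all in hg19. A FOXA1 peak was a member when its centre lay in a window, whatever its strength. The windows held 76 of 54855 peaks of the endometrial cancer cell line Ishikawa and 16 of 13252 peaks of the endometrial cancer cell line Hec1A, which is 92 of 68107 peaks in all.

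FOXA1 was mapped by chromatin immunoprecipitation and sequencing (ChIP-seq) of cross-linked chromatin with a rabbit antibody against FOXA1, in a series whose title concerns FOXA1 and outcome in HER2-positive endometrial cancer. Neither line is labelled as treated or genetically altered. For Ishikawa the labels list 6 ChIP libraries with 2 inputs, for Hec1A 3 with 2, and the ChIP libraries of either line come from 2 preparation kits. The ChIP libraries of a line were pooled before peaks were called, to 343739762 tags in Ishikawa and 143055568 tags in Hec1A, so each line has 1 list and no value below has a replicate error. The Ishikawa list was filtered against its pooled inputs. The Hec1A header records no such filter and that list gives no input values, although its name refers to inputs. Hec1A peaks were thus treated here as called without an input filter. A tag is the mapped end of a sequenced fragment. The lists hold no expression values, so neither the identity of the lines nor the level of any receptor was checked here.

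FOXA1 is a forkhead factor that can bind its sites in closed chromatin and make them accessible to other factors, nuclear receptors among them. NR3C1 encodes the glucocorticoid receptor and NR3C2 the mineralocorticoid receptor, both of which enter the nucleus once a corticosteroid is bound. NR2F1 and NR2F2 encode COUP-TFI and COUP-TFII, called orphan receptors because no physiological ligand is established, and COUP-TFII is known in the uterus for its part in the stroma and in implantation. VDR encodes the receptor of active vitamin D, which binds DNA with a retinoid X receptor.

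The motif of forkhead factors was looked up in the promoters of the receptors, to show the letters that such a factor reads. The core TGTTTAC was searched on both strands (reverse complement GTAAACA) in the RefSeq promoters of GRCh38.p14, each 300 bases long. NR3C1, NR3C2, NR2F1 and NR2F2 were matched there, and VDR was not. Of 7 NR3C1 promoters 1 held the core, and none did of the 4 of NR3C2, the 2 of NR2F1 and the 2 of NR2F2. Among all 35116 promoters 3.42% held it. The NR3C1 match lies at chr5:143403324-143403353 of GRCh38.p14 on the minus strand, with its first motif base 59 bases before an annotated start, and the capitals mark the core.
NR3C1: aaaggggcggcTGTTTACttccttttttta
The peaks are in hg19, so this match was not placed against them, and no sequence under a peak was read. No hg19 annotation was used, so a peak in a window is not assigned to the receptor gene or to any part of it.

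The 5 windows differed in how many FOXA1 peaks they held and in which line. NR3C1, NR3C2, NR2F1 and VDR held 15, 25, 18 and 13 Ishikawa peaks, and NR2F2 held 5. In Hec1A the order was another, with 6 peaks at VDR, 4 at NR3C1, 4 at NR2F2 and 1 each at NR3C2 and NR2F1. Over the whole lists there were 4.14 Ishikawa peaks for each Hec1A peak. That ratio was 25 at NR3C2, 18 at NR2F1, 3.75 at NR3C1, 2.17 at VDR and 1.25 at NR2F2. As counted, the orphan pair fell on either side of the ratio of the lists. Of the corticosteroid pair, NR3C2 lay above it and NR3C1 close to it. The values at NR3C2 and NR2F1 each rest on 1 Hec1A peak. With windows widened by 100 kb, NR3C2 held 31 Ishikawa and 3 Hec1A peaks, and NR2F1 held 25 and 3. NR3C1 then held 22 and 7, and NR2F2 held 6 and 5.

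**Figure D1:**
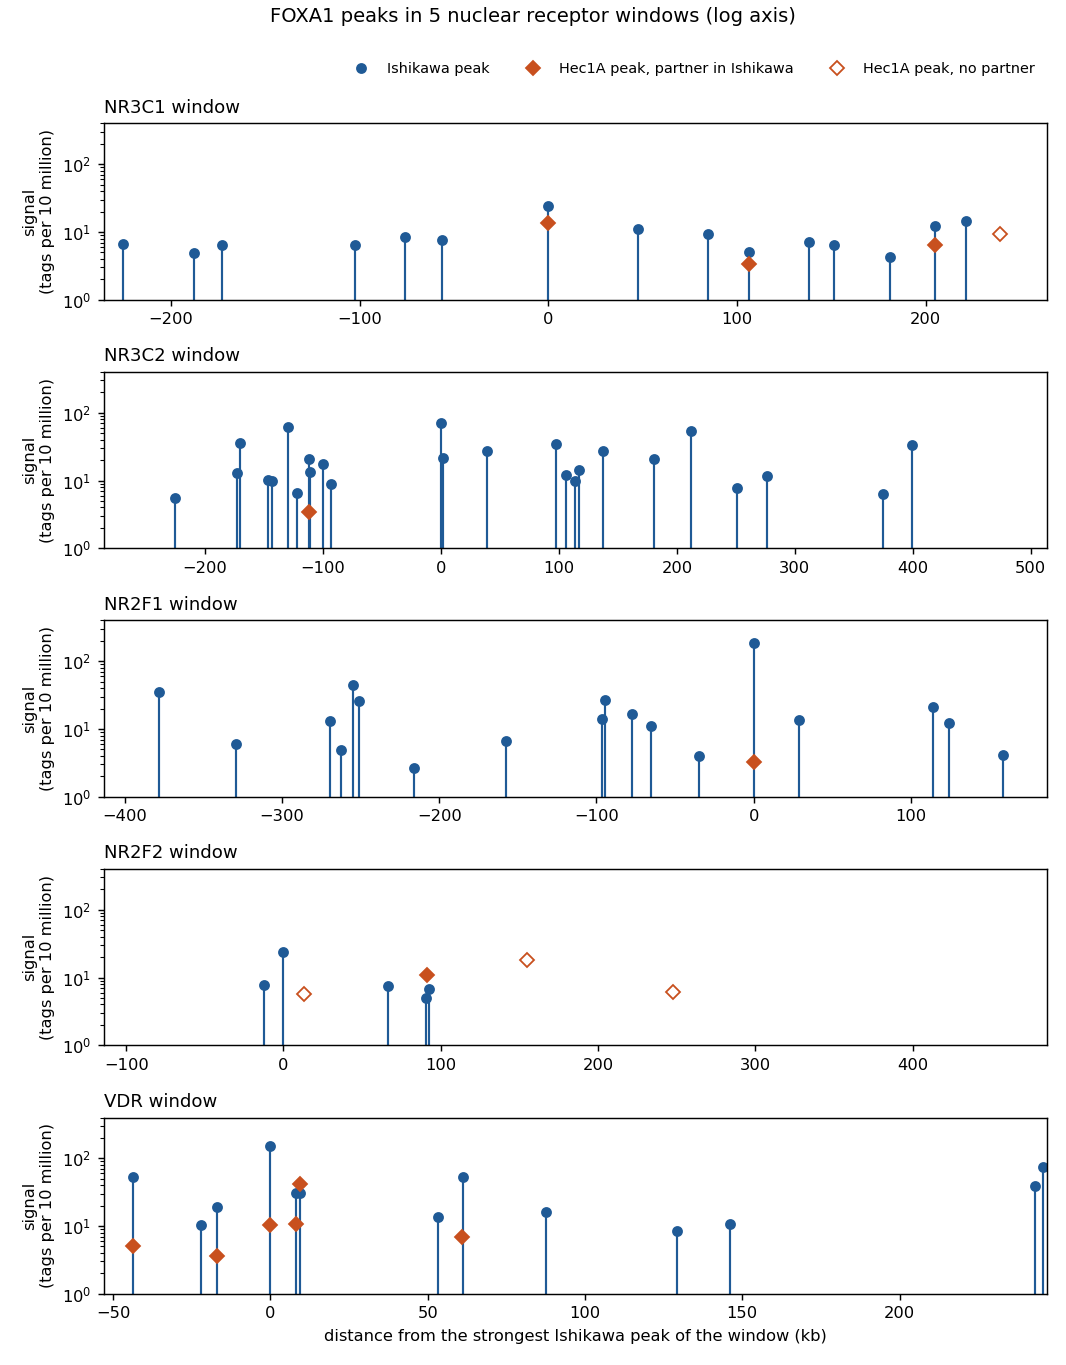
FOXA1 peaks in each window, plotted by distance from the strongest Ishikawa peak (kb) against signal in tags per 10000000 on a log axis; blue points are Ishikawa peaks, filled diamonds are Hec1A peaks that overlap an Ishikawa peak, and open diamonds are Hec1A peaks that do not. NR3C2 and NR2F1 hold 25 and 18 Ishikawa peaks beside 1 Hec1A peak each, and NR2F2 is the window with 3 open diamonds.

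Per Mb, the VDR window was the densest of the 5 in both lines, with 43.3 Ishikawa and 20 Hec1A peaks. When autosomes and chromosome X were cut into tiles of 300 kb, the mean was 5.42 Ishikawa peaks per tile, and 4.62% of tiles held at least the 13 of VDR. For Hec1A the mean was 1.31, and 2.38% of tiles held at least the 6 of VDR. On chromosome 12 alone the Ishikawa mean was 6.59 and the share 8.97%, and the Hec1A mean was 1.38 and the share 2.24%. The NR3C2 window had 31.3 Ishikawa peaks per Mb, with 11.6% of 800 kb tiles holding at least as many, but its single Hec1A peak was matched or exceeded in 82.2% of tiles. At NR2F1 the shares of 600 kb tiles were 16% for Ishikawa and 76.2% for Hec1A, and at NR2F2 they were 80.3% and 29.2%. NR3C1 lay between, at 16.6% and 22.8% of 500 kb tiles. Among tiles of the window's own chromosome, the Ishikawa shares were 13.4% at NR3C2, 13.9% at NR2F1, 59.6% at NR2F2 and 14.6% at NR3C1. The Hec1A shares were 85.4%, 74.8%, 29.8% and 19.1% in the same order. Tiles include stretches where reads cannot be mapped, so these shares are a description of the lists.

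**Figure D2:**
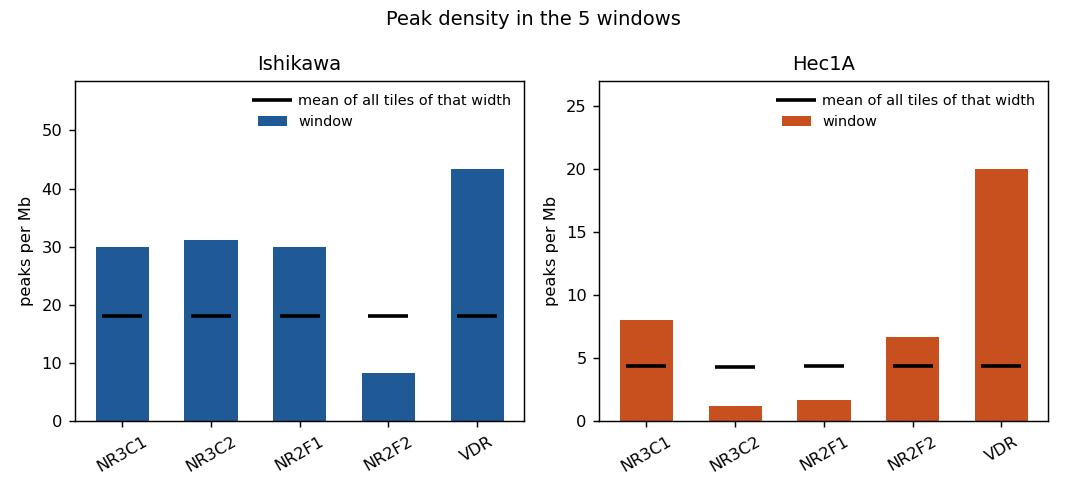
Peaks per Mb in each window (bars) in Ishikawa and Hec1A, with the mean over all tiles of the same width on autosomes and chromosome X (black lines). Ishikawa exceeds the mean in 4 windows and falls below it at NR2F2, whereas Hec1A exceeds it at NR3C1, NR2F2 and VDR.

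Peaks also differed in strength. The deposited signal is the number of tags in a peak per 10000000 tags of the pooled libraries. Its median over the 76 Ishikawa members was 12.7, against 9.69 for the whole list, and 49 of them (64.5%) exceeded that list median, as did 49.8% of all Ishikawa peaks. By window, 12 of 13 did so at VDR, 20 of 25 at NR3C2, 12 of 18 at NR2F1, 4 of 15 at NR3C1 and 1 of 5 at NR2F2. In Hec1A the members' median was 6.68 against 4.96, and 12 of 16 exceeded the list median, against 49.3% of that list. Among the peaks in the 10% of highest score in Ishikawa were 14 members (18.4%), against 10% of the list by construction, of which 6 lay at NR3C2, 5 at VDR and 3 at NR2F1. In Hec1A there were 3 such members, 1 each at NR3C1, NR2F2 and VDR, against 10.1% of the list with ties. The local fold, a peak's tags over those of the surrounding 10000 bp, reached 8 at 30 Ishikawa members (39.5%), against 40.1% of the list, so the members did not stand above it by this measure. In Hec1A 5 of 16 members did, against 26% of the list. Of the Ishikawa members, 44 (57.9%) exceeded input by a fold of at least 8, against 48.6% of all Ishikawa peaks.

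A partner was defined as a peak of the other line whose interval shares at least 1 bp. Of the 16 Hec1A members, 12 had an Ishikawa partner, which is 75% (95% Wilson interval 50.5% to 89.8%), and 52.9% of the whole Hec1A list had one. The same 12 sites are 15.8% of the Ishikawa members (9.27% to 25.6%), against 12.8% of the whole Ishikawa list. Both intervals hold the share of the whole list. VDR supplied 6 of the 12 sites and NR3C1 3, with 1 each at NR3C2, NR2F1 and NR2F2. Without VDR the shares were 60% in Hec1A and 9.52% in Ishikawa. How the members stood against the lists depended on the peaks kept. With a local fold of 8 or more required in both lists, 1 of 5 Hec1A members (20%, 3.62% to 62.4%) had a partner, against 60.3% of that list, and 1 of 30 Ishikawa members (3.33%, 0.591% to 16.7%), against 9.44%. Both shares thus turned from above to below the list, with intervals that still held the list's share. With the Ishikawa list reduced to its 13252 peaks of highest score, 9 of 16 Hec1A members (56.3%, 33.2% to 76.9%) had a partner, against 29.9% of the list. With an Ishikawa fold over input of 8 or more, 11 of 16 did (68.8%, 44.4% to 85.8%), against 37.5%. In both of these settings the Hec1A interval lay above the list's share. All 6 shared VDR sites were kept in both, so VDR supplied 6 of the 9 and 6 of the 11 sites. These shares thus rest largely on that window, and shares without VDR were not computed in these settings.

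At the 12 shared sites the peak centres of both lines lay 1 to 39 bp apart, with a median of 12.5 bp, against 14 bp over all 7012 shared sites. The Ishikawa signal was higher at 10 of them and the Hec1A signal at 2. Over all shared sites the Hec1A signal was higher at 6.43%. The ratio of Ishikawa to Hec1A signal had a median of 4.17 in the windows and 3.53 over all shared sites (quartiles 2.10 and 5.83). Peak intervals are 353 bp wide in Ishikawa and 254 bp in Hec1A. Per base of peak width the median ratio was 3.0 in the windows and 2.54 over all shared sites. On that scale 2 of the 12 sites (16.7%) were higher in Hec1A, against 12.3% of all shared sites.

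**Figure D3:**
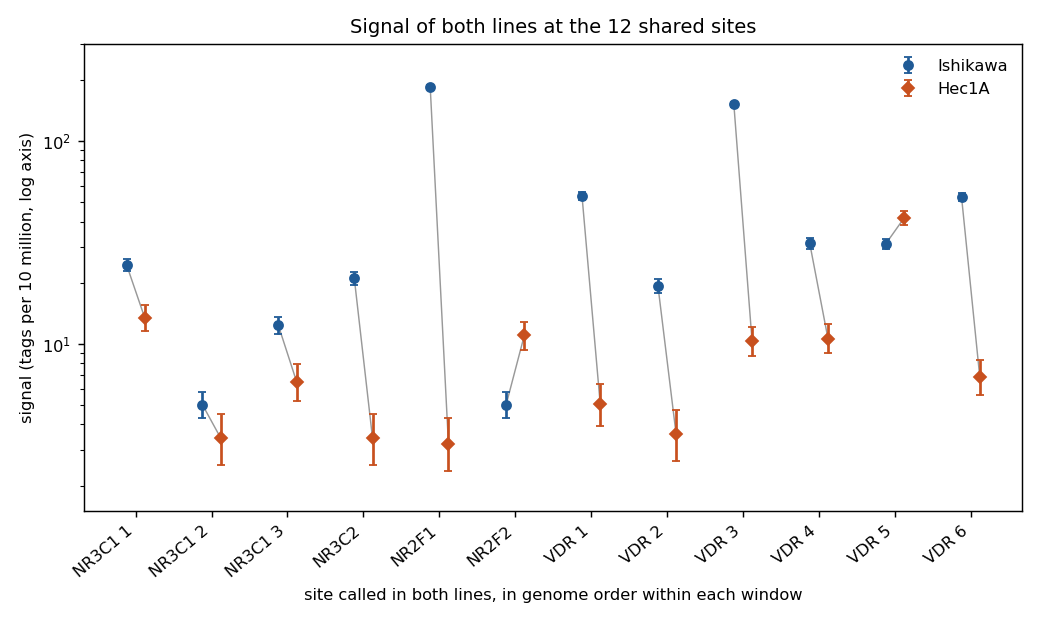
Signal in tags per 10000000 (log axis) of Ishikawa (circles) and Hec1A (diamonds) at the 12 shared sites, in genome order within each window; bars are 95% exact Poisson intervals of the tag number and cover counting error alone. The line falls from Ishikawa to Hec1A at 10 sites, steepest at NR2F1, and rises at NR2F2 and at the fifth VDR site.

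At NR3C1, the gene of the glucocorticoid receptor, FOXA1 peaks were of low to moderate strength in Ishikawa and 3 of them were shared. The strongest, at chr5:142735337-142735689, had an Ishikawa signal of 24.5 tags per 10000000 (95% exact Poisson interval 22.9 to 26.2), a fold over input of 47.5 and a local fold of 16.2. Its Hec1A partner at chr5:142735425-142735679 was also the strongest Hec1A peak of the window, with a signal of 13.4 (11.6 to 15.5) and a local fold of 13.3. Tags without molecular identifiers are not independent molecules, so these and the following intervals cover counting error only. The Ishikawa to Hec1A ratio there was 1.83 (95% exact interval 1.56 to 2.15), among the lower ratios, since 80.0% of all shared sites had a ratio at least as high.

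Both other shared sites of NR3C1 had similar ratios. At chr5:142940237-142940589 the signals were 12.3 in Ishikawa and 6.50 in Hec1A, a ratio of 1.89 (1.51 to 2.40), with centres 1 bp apart. The weakest of the 3, at chr5:142841823-142842175, had signals of 5 and 3.43 and a ratio of 1.46 (1.06 to 2.05). Per base of peak width that ratio was 1.05 with an interval of 0.761 to 1.47, so the lines were not separated there. Of the 12 shared sites of all 5 windows 1 reached a local fold of 8 in both lines, the NR3C1 site at chr5:142735337-142735689.

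By score, the next Ishikawa peak of NR3C1 after the strongest was the one at chr5:142956468-142956820, with a signal of 14.7 and no partner, followed by the shared one at chr5:142940237-142940589. The remaining Hec1A peak, at chr5:142974605-142974859, had no partner, a signal of 9.30 (7.78 to 11.0) and a local fold of 5.39. Its nearest Ishikawa peak was the one of signal 14.7, with centres 18.1 kb apart. The 12 Ishikawa peaks without a partner had a median signal of 6.82 and ranged from 4.28 to 14.7. Of the 15 Ishikawa peaks of this window 0 had a neighbour within 10 kb, as 33.9% of all Ishikawa peaks had.

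The local background, computed as signal divided by local fold, can include tags of neighbouring peaks in the surrounding 10000 bp. It is thus not independent of how closely peaks lie. Its median was 1.25 tags per 10000000 over the 4 Hec1A peaks of NR3C1 and 0.810 over the Hec1A list. The 81 other Hec1A peaks within 5 Mb had 1.13. In Ishikawa the background of the window was 1.23 against 1.34 for the list. The part of this Hec1A level in the number or signal of the peaks was not tested.

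NR3C2, the gene of the mineralocorticoid receptor, held the most Ishikawa peaks of the 5 windows and almost none of Hec1A. The 3 Ishikawa peaks of highest score were at chr4:149085712-149086064 with a signal of 70.9 (68.1 to 73.8), at chr4:148955959-148956311 with 60.8 (58.2 to 63.5), and at chr4:149297310-149297662 with 53.6 (51.2 to 56.1). All 3 lacked a Hec1A partner, and their nearest Hec1A peaks lay 112, 17.8 and 324 kb away. Their folds over input were 34.3, 117.7 and 16.0. Of the 25 Ishikawa peaks 1 (4%, 0.710% to 19.5%) had a partner, an interval that holds the 12.8% of the whole list. The 24 without one had signals from 5.47 to 70.9 and a median of 13.8.

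The single shared site of NR3C2 was not among these strong ones. At chr4:148973730-148974082 the Ishikawa signal was 21 (19.5 to 22.6), in the top 17.0% of that list by score. The Hec1A peak at chr4:148973791-148974045 had a signal of 3.43 (2.53 to 4.53) and a score of 32, which is the tag threshold of the Hec1A call itself. Its clonal fold was 1.3, and it was lost when peaks with a clonal fold above 1 were left out. The clonal fold is the number of distinct tag positions expected over the number observed, so it is high where many tags start at the same bases. The ratio of signals was 6.12 (4.59 to 8.37).

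Ishikawa peaks of NR3C2 lay in runs. Of the 25, 16 (64%) had a neighbour within 10 kb, against 33.9% of the list. There were 6 runs of peaks at most 10 kb apart, and 2 of them held 4 peaks each, over 18.8 kb from chr4:148955959 and over 19.7 kb from chr4:149182992. The strongest run, at chr4:149085712-149087785, joined the peak of 70.9 to one of 21.8 at 1.72 kb. Beside this density, the median local background of the Ishikawa peaks was 2.06, or 1.54 times that of the list, while peaks within 5 Mb had 1.38. Input tags averaged 6.56 per peak here and 5.36 over the list. Tags of neighbouring peaks can enter the local background, so it is not independent of these runs. The part of either level in the peak number was not tested.

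NR2F1, the gene of COUP-TFI, held the site at which the lines differed most within these windows. At chr5:93013089-93013441 the Ishikawa signal was 184.5 (180.0 to 189.1), with a fold over input of 71.5, a local fold of 58.8 and a rank of 327 among 54855 peaks by score. This peak alone held 41.2% of the summed signal of the 18 Ishikawa peaks of the window, which cover 6.35 kb with a mean signal of 24.8. The Hec1A partner, at chr5:93013123-93013377 and with its centre 15 bp away, had a signal of 3.22 (2.35 to 4.29), a local fold of 4.35 and a rank of 8188 among 13252. The ratio was 57.3 (43.0 to 78.5), and 0.328% of all shared sites had a ratio at least as high.

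The share of Ishikawa peaks with a partner, 1 of 18 (5.56%, 0.988% to 25.8%), had an interval that holds the 12.8% of the whole list. Next by score were those at chr5:92758313-92758665, with a signal of 44.4 and a fold over input of 171.8, and at chr5:92635248-92635600, with a signal of 35.2. The 17 peaks without a partner had a median signal of 13.3, from 2.62 to 44.4. The tag threshold of the Hec1A call corresponds to 2.24 tags per 10000000 and that of Ishikawa to 2.56, so an absent Hec1A peak can still hold tags below that level or fail the local fold of 4. A run of 4 Ishikawa peaks lay at chr5:92743593-92762611 over 18.7 kb, and a pair 1.69 kb apart at chr5:92916681-92918723 with signals of 14.3 and 26.4.

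Hec1A peaks were sparse around NR2F1 as well. Within 5 Mb of the window there were 11 other Hec1A peaks, with a median local background of 0.410 against 0.810 for the list, and 212 other Ishikawa peaks, with 1.37 against 1.34. The single Hec1A peak inside the window had a local background of 0.740, and the other Hec1A peaks of chromosome 5 had a median of 0.946. The low Hec1A level was thus that of the flanking peaks. Its part in the number of Hec1A peaks was not tested.

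NR2F2, the gene of COUP-TFII, had the fewest Ishikawa peaks of the 5 windows, 5, and 4 of Hec1A. Of the 4 Hec1A peaks 1 (25%, 4.56% to 69.9%) had an Ishikawa partner, an interval that holds the 52.9% of the whole Hec1A list. The strongest Hec1A peak by signal, at chr15:96869062-96869316, had 18.1 tags per 10000000 (16.0 to 20.4) and a local fold of 21.3. Its nearest Ishikawa peak was 62.6 kb away. However, its clonal fold was 1.84, close to the limit of 2 set in the call, and its score of 89 was below that of the shared site, so many of its tags shared a position.

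Both other Hec1A peaks without a partner had clonal folds under 1. The one at chr15:96961516-96961770 had a signal of 6.22 (5.0 to 7.66) and a local fold of 8.96, and lay 155 kb from the nearest Ishikawa peak. The one at chr15:96727155-96727409 had a signal of 5.66 (4.50 to 7.04) and a local fold of 6.54, and an Ishikawa peak lay 13.0 kb away.

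The shared site of NR2F2 was stronger in Hec1A. At chr15:96805089-96805343 the Hec1A signal was 11 (9.33 to 12.8), in the top 9.98% of its list by score, and at chr15:96805027-96805379 the Ishikawa signal was 5 (4.28 to 5.81), in the lower part of its list at 82.7% from the top. The Hec1A to Ishikawa ratio was 2.2 (95% exact interval 1.76 to 2.74), and 1.34% of all shared sites favoured Hec1A at least as much. A further Ishikawa peak, at chr15:96806382-96806734, lay 1.34 kb from the Hec1A centre with a signal of 6.72 and a clonal fold of 1.99.

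In Ishikawa the strongest peak of NR2F2, at chr15:96714103-96714455, had a signal of 24.2 (22.6 to 25.9), a fold over input of 18.8 and no partner. It held 47.4% of the summed signal of the 5 peaks, which cover 1.77 kb with a mean signal of 10.2. Next by score came the peak at chr15:96701877-96702229, with a score of 283 and a signal of 7.68, and then the shared peak, with a score of 173. The local background was 1.09 in Ishikawa and 0.858 in Hec1A, against 1.34 and 0.810 for the lists. Input tags in the Ishikawa peaks averaged 3.20, against 5.36 for the list.

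At VDR, all 6 Hec1A peaks had an Ishikawa partner (100%, 61.0% to 100%), against 52.9% of the whole Hec1A list. Of the 13 Ishikawa peaks 6 had a partner (46.2%, 23.2% to 70.9%), against 12.8% of the whole Ishikawa list. Both intervals lay above the share of the list, but they count neighbouring peaks as independent, and VDR was 1 of 5 windows. They also depend on the window bounds. Narrowed by 100 kb, the window held 5 Ishikawa peaks and 1 Hec1A peak, and of the 6 shared sites only chr12:48213894-48214246 was kept. The median signal of the list was exceeded by 12 of 13 Ishikawa and 5 of 6 Hec1A peaks. The local fold of the Hec1A peaks did not stand out, with a median of 5.88 against 5.71 for the list and 1 of 6 at 8 or more. The 6 sites lay in the first part of the window, between chr12:48109061 and 48214246. The strongest in Ishikawa, at chr12:48152806-48153158, had a signal of 151.4 (147.3 to 155.6), a fold over input of 65.3 and a rank of 546 among 54855. Its Hec1A partner had 10.3 (8.68 to 12.1), so the ratio was 14.7 (12.5 to 17.5), a value that 3.68% of all shared sites reached.

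At 9.34 kb from it the order of the lines was the opposite. At chr12:48162196-48162450 the Hec1A signal was 41.5 (38.2 to 45.0), the highest Hec1A value of the 5 windows, with a local fold of 23.7 and a rank of 280 among 13252. The Ishikawa signal at chr12:48162150-48162502 was 31 (29.2 to 32.9), with a local fold of 7.3. Hec1A exceeded Ishikawa by a ratio of 1.34 (1.21 to 1.48), with centres 3 bp apart. Between these sites, at chr12:48160879-48161231, the signals were 31.2 in Ishikawa and 10.6 in Hec1A, a ratio of 2.94 (2.47 to 3.50). The 3 sites thus formed a run over 9.34 kb in both lines, with the highest Ishikawa peak at one end and the highest Hec1A peak at the other.

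The other 3 shared sites of VDR were stronger in Ishikawa. Signals were 53.4 and 5.03 at chr12:48109061-48109413, a ratio of 10.6 (8.38 to 13.6). At chr12:48213894-48214246 they were 52.7 and 6.85, a ratio of 7.69 (6.28 to 9.53). At chr12:48135985-48136337 they were 19.3 and 3.57, a ratio of 5.41 (4.07 to 7.34). Of the 13 Ishikawa and 6 Hec1A peaks of this window 0 had a clonal fold above 1, against 25.1% and 28.8% of the lists. Among listed peaks with a partner, as all 6 Hec1A peaks here were, the shares were lower, at 8.14% and 13.4%. Among those without a partner they were 27.6% and 46.2%.

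Of the 7 Ishikawa peaks of VDR without a partner, the strongest lay at the far edge of the window. The peak at chr12:48398434-48398786 had a signal of 74.9 (72.0 to 77.9), the second highest score of the window, and the one at chr12:48395803-48396155 had 38.7. Next by score, the peak at chr12:48213894-48214246 was shared. Between chr12:48240490 and 48299119, after the last shared site, 3 Ishikawa peaks had signals of 16.3, 8.47 and 10.9 and no partner. Of the 13 Ishikawa peaks 10 (76.9%) had a neighbour within 10 kb, and of the 6 Hec1A peaks 3 did, against 15.8% of the Hec1A list.

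Local background, which can include tags of neighbouring peaks, was above the list in both lines at VDR, the densest of the 5 windows. Input tags, which the Hec1A list does not give, were above the list in Ishikawa. The local background had a median of 2.43 in Ishikawa, 1.82 times that of the list, and input tags averaged 7.85 per Ishikawa peak. Elsewhere on chromosome 12 the Ishikawa values were 1.97 and 7.88, so the input level was that of the chromosome. In Hec1A the local background was 1.32 at VDR and 0.766 over the 89 other peaks within 5 Mb. The part of these levels in the peak numbers was not tested.

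**Figure D4:**
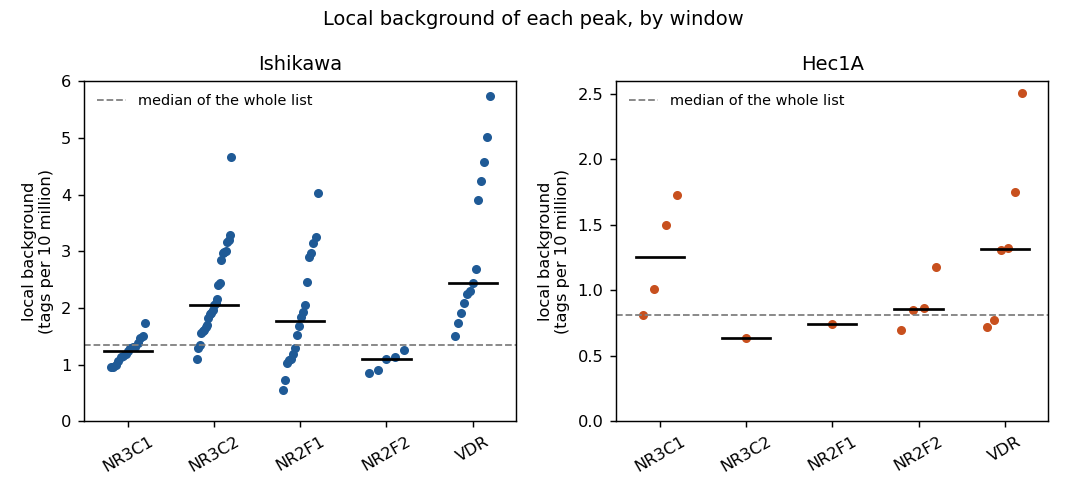
Local background (signal divided by local fold, in tags per 10000000) of each peak by window in Ishikawa and Hec1A; black bars are window medians and dashed lines the medians of the whole lists, 1.34 and 0.810. VDR has the highest window median in both lines, NR3C2 and NR2F1 exceed the list in Ishikawa, and NR3C1 and NR2F2 exceed it in Hec1A.

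In Ishikawa, peaks with a partner had higher signals than those without, in the windows as in the whole list. The 12 in the windows had a median signal of 27.8 and a median focus ratio, the share of tags near the peak centre, of 0.930, against 11.5 and 0.825 for the 64 without a partner. Over the whole list the same medians were 19.1 and 0.878 with a partner, and 9.02 and 0.822 without. A clonal fold above 1 was found at 18 of the 64 (28.1%) and at 0 of the 12, against 27.6% and 8.14% of the whole list without and with a partner. At NR2F2 the order was the opposite, with 5 at the partnered Ishikawa peak and a median of 7.57 over the 4 others. In Hec1A the median signals were 6.68 over the 12 members with a partner and 7.76 over the 4 without, whereas over the whole list they were 5.59 and 4.54.

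The window bounds decided some of the members. Just outside the start of the NR2F1 window, at 17.8 kb, lay an Ishikawa peak with a signal of 330.5, higher than any member, while the first peak inside had 35.2. Ishikawa peaks of 89.5 and 91 lay 11.4 kb before the NR3C1 window and 3.44 kb before the NR2F2 window, where the first peaks inside had 6.63 and 7.68. At VDR the first peak inside had 53.4 and the nearest outside, at 0.073 kb, had 10.1. At the end of that window the last peak inside, 1.39 kb from the bound, had 74.9.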

How the data were processed

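Peaks are on hg19, and the submitters' processing notes name the aligner Bowtie (version 1.1.2), SAMtools (1.3.1) and HOMER (4.7.2). The peak caller was findPeaks on pooled tags, per the file headers, and the authors required a false discovery rate of 0.001 (88 tags in Ishikawa, 32 in Hec1A), a local fold of 4 over 10000 bp, a clonal fold of at most 2 and, in Ishikawa, a fold of 4 over pooled input. The Hec1A header records no input filter, but the name of that list refers to inputs. The deposited signal is tags per 10000000. The deposited focus ratio is a fraction of tags near the centre. Scores were deposited as findPeaks gave them. The deposited folds (local, input and clonal) are linear ratios. The deposited p-values were not used. All peak values are the authors', and scores and folds were compared within a list alone.

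Members, partners, spacing, tiles and local background were computed with Python 3.11.15, pandas 2.3.3 and SciPy 1.17.1. Tag numbers are signals multiplied back by depth. Intervals are 95% Wilson for shares, exact Poisson for signals and exact binomial for ratios of tag numbers. With 1 pooled list per line no test between lines or replicates was made. For each locus every shared peak, the 3 Ishikawa peaks of highest score and every Hec1A peak are named, and others were named after their values were seen. The windows and lists were chosen with earlier results of these data known. Overlap and membership were checked on planted lists. Alternatives changed the peaks kept, the window bounds, the overlap rule and the peak width. Analyses that need hg19 annotation or sequence, including other nuclear receptor genes, were not run.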

Additional observations from a re-analysis of the deposited data

How the results depend on the processing

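Alternatives for the direction at shared sites, and the one on peak width, were chosen after seeing the data. Of 111 alternatives computed, 65 stayed within 1.5 times for a count, or within the 95% interval for a share or median, and 46 did not. At a local fold of 8 or more, the windows held 30 Ishikawa and 5 Hec1A peaks with median signals of 26.8 and 13.4, 3.33% and 20% of them had a partner (9.44% and 60.3% of the whole lists), and 0 shared sites were higher in Hec1A. Requiring 8-fold enrichment over input, which the Hec1A list does not give, 44 Ishikawa peaks with a median signal of 23 were left. With the Ishikawa list cut to the Hec1A number, 27 Ishikawa peaks with a median signal of 33.7 were left, 33.3% of them and 56.3% of the Hec1A members with a partner (29.9% of either whole list), and 1 shared site was higher in Hec1A. Fewer peaks follow from each threshold. With windows widened or narrowed by 100 kb, the Hec1A peaks numbered 25 and 9, and 1 shared site was higher in Hec1A in the narrowed windows, where VDR kept 5 Ishikawa peaks and 1 Hec1A peak and the Ishikawa share with a partner, 10.7%, was below the 12.8% of the list. Both other overlap rules gave the same 75% and 15.8%. At 32 tags a Hec1A peak has a wide counting interval, and weaker binding is not detectable at this depth. Single libraries could not be left out of these lists. No paired analysis was possible because both lists hold pooled libraries only.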
